A study of Mus musculus with 12 samples.

Results

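The genes described here are 44 genes of skeletal muscle, out of 32288 rows counted in each library, in tumors of P815 cells grown in mice. They were listed by name for their role in the muscle fibre, with earlier results of these data known: 11 genes of fast fibres, 5 of slow fibres, 13 sarcomere genes that fast and slow fibres share, 8 genes of calcium handling and 7 genes of energy supply. All 44 were found in the count tables by symbol. Of them, 42 reached 10 counts when the 12 libraries were added up, the exceptions being Myh7, with no count, and Smpx, with 8 counts. RNA-seq was done on 12 tumors, each taken from a different DBA/2 mouse with a single tumor under the skin of its back. The mice were 9 to 10 weeks old at implantation, and the illumination began 7 days later.

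P815 is a mouse mastocytoma line, a tumor of mast cells. P815-IFNG tumors grew from 1 single-cell clone that carries the light-sensing transactivator GAVPO under the EF-1α promoter, a UAS-driven cassette of Ifng, Cxcl10 and hGluc, and the mRuby and Fluc reporters. P815-M tumors grew from 1 single-cell clone that carries the mRuby and Fluc reporters alone, so that a difference between the lines is also a difference between clones. Light mice received blue light for 12 h per day over 6 days, and dark mice received none. There were 3 tumors in each of the 4 groups: P815-IFNG light, P815-IFNG dark, P815-M light and P815-M dark. The labels do not name muscle as a tissue of the samples, and in bulk tumors fewer cells of a type and less RNA per cell cannot be told apart.

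A sarcomere is built of thick filaments of myosin (heavy chains Myh1, Myh2, Myh4 and Myh7, light chains Myl1, Mylpf and Myl2) that pull on thin filaments of actin (Acta1). Troponins (the Tnnt, Tnni and Tnnc genes) and tropomyosin (Tpm2) gate that pull when calcium leaves the sarcoplasmic reticulum through the ryanodine receptor Ryr1, and the pump Atp2a1 takes the calcium back. Fast and slow fibres use different genes for most of these parts, and the creatine kinase Ckm, the glycogen phosphorylase Pygm and the oxygen store Mb supply the energy.

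The libraries were not alike in depth. In 10 of them the total was 2211234 to 2946792 counts, while P815-IFNG light 3 held 41473500 and P815-IFNG dark 3 held 42338096. These 2 deep libraries, both of P815-IFNG, are kept out of the ranges and correlations over the 10 libraries below. The group means, their SDs and the group comparisons include them. A count of 3, taken as the floor for single values, corresponded to 0.931 to 1.56 CPM (counts per 1000000 counts, on scaled library sizes) in the 10 libraries and to 0.067 to 0.0694 CPM in the deep ones. The deep libraries also differed in the counts of genes on opposite strands: mt-Nd6, encoded on the other strand than the other mitochondrial protein genes, took 3.56% and 3.85% of the mitochondrial protein-coding counts there and 29.0% to 47.9% in the 10 others. The levels of muscle genes with an overlapping neighbour on the other strand are therefore uncertain, also where this is not repeated below. Des, Xirp2, Ryr1, Mybpc1 and Casq1 are among these genes, and some of the neighbours are described near the end. A muscle gene without such a neighbour could differ between the 10 and the deep libraries too. Pgam2 lay at 19.8 to 50.7 CPM in the 10 libraries and at 0.139 and 1.92 CPM in the deep pair. The levels of the other muscle genes may thus be uncertain as well, and the reason was not tested.

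Regulatory sequence was available for the genes that lead the fast and the energy class in mean CPM, Myh1 and Ckm, which behaved differently across libraries. Shown are stretches upstream of their RefSeq starts (GRCm38.p6, plus strand), without bases that lie in an annotated exon, and the capitals mark a match to the MEF2 motif in Myh1 and to CAGCTG, a form of the E-box that the MyoD family binds, in Ckm. The Myh1 stretch is chr11:67199852-67200051 and the Ckm stretch chr7:19410844-19411024.
Myh1: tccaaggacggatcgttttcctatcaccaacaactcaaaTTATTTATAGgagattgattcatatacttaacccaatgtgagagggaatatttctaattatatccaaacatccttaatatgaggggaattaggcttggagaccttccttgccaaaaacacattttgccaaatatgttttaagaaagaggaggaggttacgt
Ckm: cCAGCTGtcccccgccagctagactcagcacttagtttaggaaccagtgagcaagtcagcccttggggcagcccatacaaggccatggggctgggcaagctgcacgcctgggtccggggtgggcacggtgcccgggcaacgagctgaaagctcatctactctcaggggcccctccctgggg
Both motifs were searched on both strands in the 250 bases before the start, and a match of one motif may overlap a match of the other. Of the 44 genes, 33 had such a sequence. CAGCTG was found in 17 of the 33 (51.5%) and in 14.7% of 27025 promoters with a symbol, and the MEF2 motif in 6 (18.2%) and in 3.42%. The energy class held CAGCTG in 4 of 5 promoters and the fast class in 3 of 7. A match describes these letters and is not evidence of binding.

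Many of the muscle genes were present in some tumors and near absent in others, while a few, such as Ckm and Ttn, had counts in every library. Over the 10 libraries the summed level of the 44 genes ranged from 233 CPM in P815-M dark 1 to 1353 CPM in P815-M dark 2, a 5.80-fold range. P815-IFNG dark 1 held 1281 CPM and P815-M light 3 held 886 CPM. The other 7 lay between 233 and 383 CPM. The 2 highest libraries thus came from different lines, and P815-M dark held both the lowest and the highest library. The number of genes with at least 1 count ran from 22 of 44 in P815-M dark 3 to 42 in P815-IFNG dark 1 and P815-M light 3. The deep pair, with nearly the same depth, differed as well: 28 of the genes had a count in P815-IFNG light 3 and 43 in P815-IFNG dark 3.

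**Figure D1:**
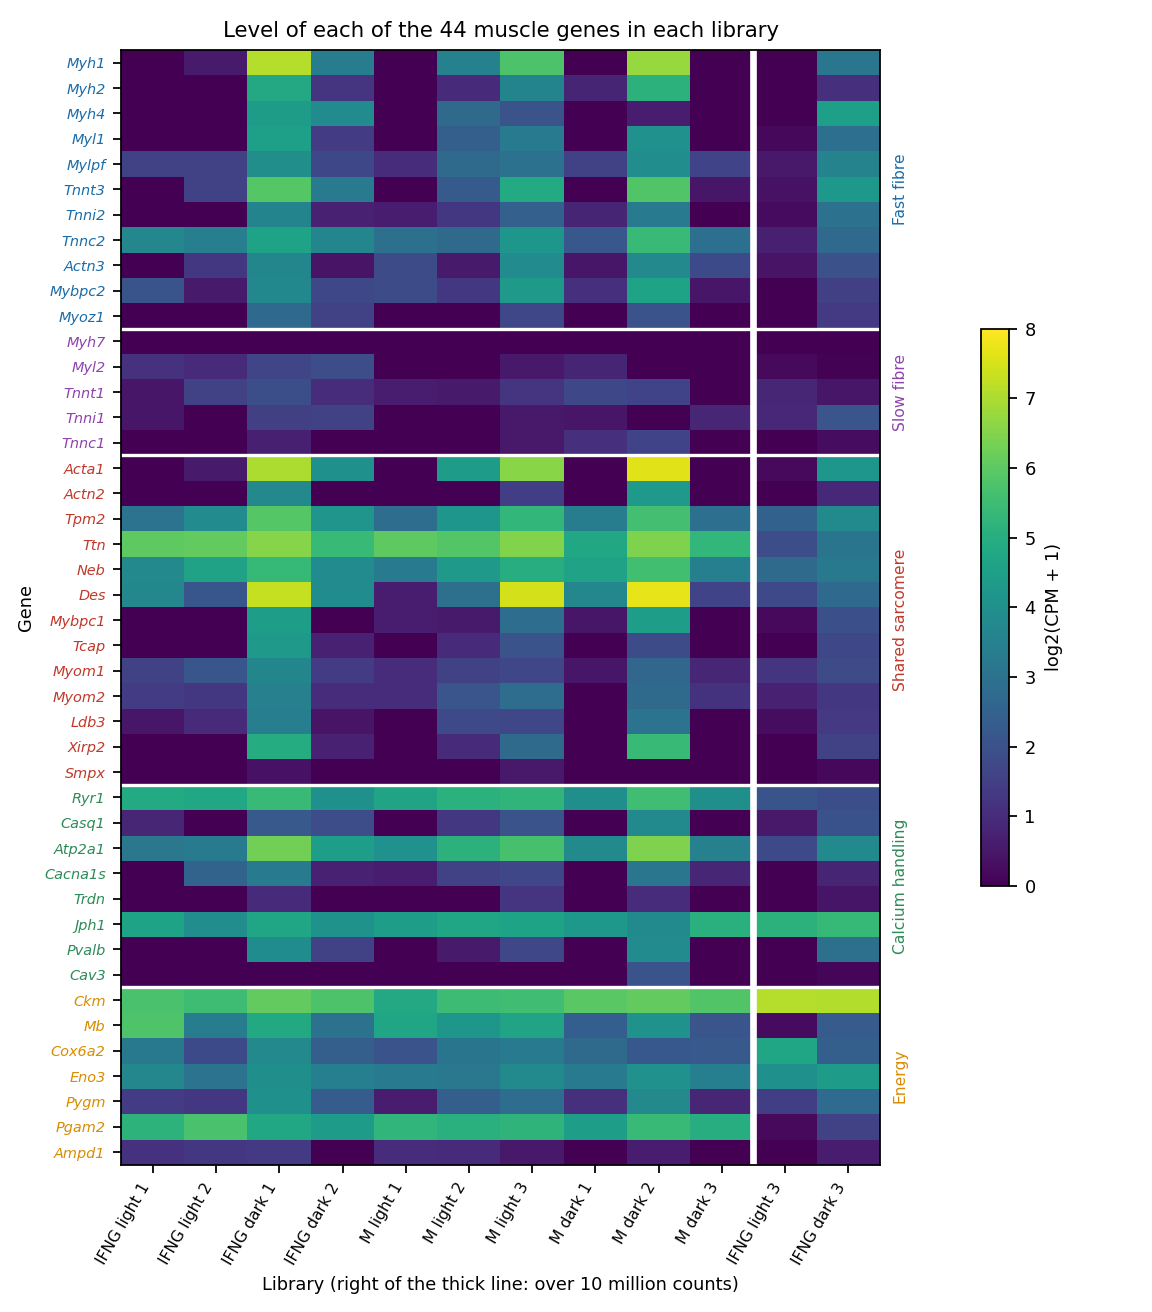
Levels of the 44 muscle genes (rows, coloured by class) in each library (columns), as log2(CPM + 1), with the 2 deep libraries to the right of the thick line. Most fast fibre and shared sarcomere rows are brighter than elsewhere in P815-IFNG dark 1, P815-M light 3 and P815-M dark 2, while Ckm, Eno3 and Jph1 stay near one level in the 10 libraries and slow fibre rows stay dark.

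The classes differed in how far they ranged. Fast fibre genes summed to 8.59 CPM in P815-M dark 1 and to 346 CPM in P815-IFNG dark 1, a 40.3-fold range over the 10 libraries. Shared sarcomere genes spanned 11.7-fold, from 58.8 CPM in P815-M dark 3 to 690 CPM in P815-M dark 2. Calcium handling genes spanned 3.99-fold, from 46.1 to 184 CPM. Energy genes spanned only 1.68-fold, from 98.9 CPM in P815-IFNG dark 2 to 166 CPM in P815-IFNG dark 1. Single energy genes ranged more widely than their sum. Mb ran from 3.29 to 54.7 CPM and Pygm from under the floor to 15.2 CPM. Ckm ran from 27.5 to 67.2 CPM and Eno3 from 7.32 to 15.6 CPM. Slow fibre genes summed to 7.45 CPM at most, and their lowest sum, 0.479 CPM in P815-M light 2, was under the floor of that library, so no range is given. In consequence the energy genes made up 11.6% of the summed muscle CPM in P815-M dark 2 and 47.5% in P815-IFNG light 1.

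**Figure D2:**
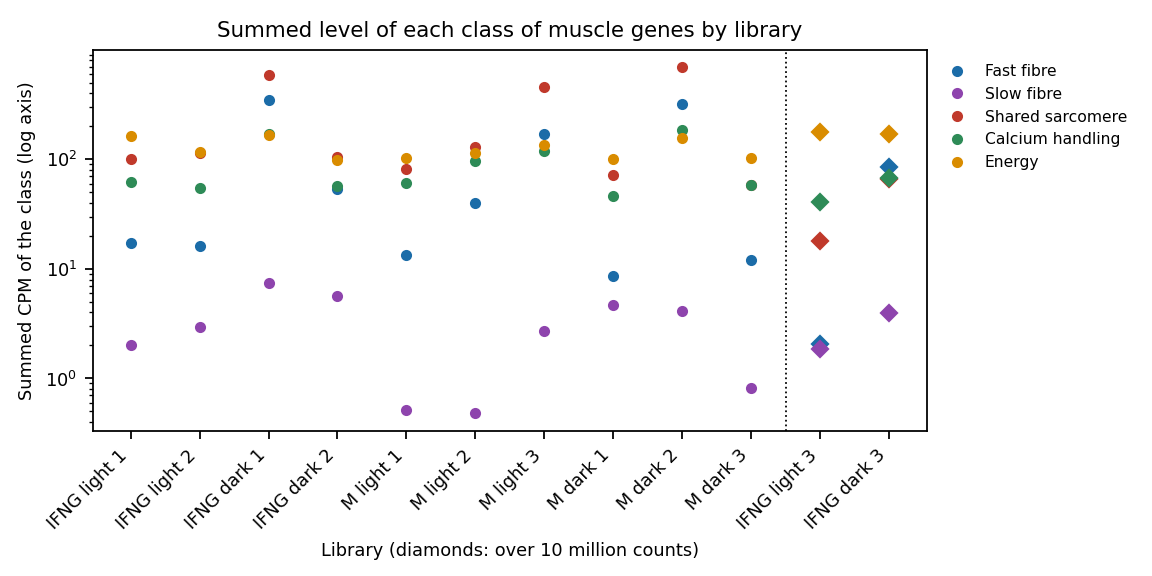
Summed CPM of each class (log axis) in each library, with the 2 deep libraries as diamonds. The fast fibre points run from 8.59 to 346 CPM over the 10 libraries and the energy points from 98.9 to 166 CPM.

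Myh1 (chr11:67200052-67224575, plus strand) encodes the heavy chain of fast IIX fibres. Its level was 0, 0.488 and 0 CPM in P815-IFNG light 1, 2 and 3, and 138, 9.38 and 7.75 CPM in P815-IFNG dark 1, 2 and 3. It was 0, 10.5 and 53.2 CPM in P815-M light, and 0, 107 and 0 CPM in P815-M dark. All P815-IFNG dark libraries lay above all P815-IFNG light libraries, whereas the P815-M groups overlapped. Tnnt3, the fast troponin T, had 0, 1.95 and 0.324 CPM in P815-IFNG light and 58.7, 8.71 and 18.3 CPM in P815-IFNG dark. In the control line it had 0, 3.83 and 28.6 CPM in light and 0, 56.3 and 0.412 CPM in dark. The high libraries were the ones that were high in Myh1.

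Acta1, the actin of skeletal muscle thin filaments (chr8:123891769-123894751, minus strand), has no overlapping exon on the other strand and was singled out after its values were seen. It was at 0, 0.488 and 0.162 CPM in P815-IFNG light, at 129, 15.1 and 17.5 CPM in P815-IFNG dark, at 0, 20.6 and 93.9 CPM in P815-M light and at 0, 199 and 0 CPM in P815-M dark. Per kb of exon, it was the highest of the 44 genes in P815-IFNG dark 1 (84.2 CPM per kb), P815-M light 3 (61.1) and P815-M dark 2 (130). It was not among the 3 highest in the deep libraries, but in P815-IFNG dark 3 it nearly tied with the third, Eno3, both at 11.4 CPM per kb.

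Among the shared sarcomere genes, the highest mean CPM belonged to the giant spring titin (Ttn) and the intermediate filament desmin (Des). Ttn had 64.3, 66.4 and 2.71 CPM in P815-IFNG light, 91.9, 40.9 and 7.59 CPM in P815-IFNG dark, 63.3, 57.5 and 89.0 CPM in P815-M light and 26.9, 87.0 and 38.3 CPM in P815-M dark. Ttn thus kept at least 26.9 CPM in each of the 10 libraries, even where Acta1 had no count, and was low in both deep ones. An antisense gene, Gm13938, overlaps its exons by 453 bases. Des had 12.1, 3.42 and 2.38 CPM in P815-IFNG light, 155, 13.7 and 5.65 CPM in P815-IFNG dark, 0.519, 6.70 and 180 CPM in P815-M light and 12.1, 207 and 2.06 CPM in P815-M dark. Desmin followed the libraries rich in Acta1, with a spread within each of the P815-IFNG dark, P815-M light and P815-M dark groups larger than its group means. Des and Tpm2 are also expressed by other contractile cells, and without them the range of the summed level over the 10 libraries was 5.18-fold.

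Slow fibre genes were low: none exceeded 2.79 CPM in the 10 libraries, or 3.30 CPM in the deep ones. Myh7, the heavy chain of slow fibres, had 0 counts in each of the 12 libraries. Tnnt1, the slow troponin T, had 0.402, 1.95 and 0.833 CPM in P815-IFNG light, 2.79, 1.005 and 0.402 CPM in P815-IFNG dark, 0.519, 0.479 and 1.34 CPM in P815-M light and 2.34, 2.08 and 0 CPM in P815-M dark. Tnni1, the slow troponin I, had 0.402, 0 and 0.856 CPM in P815-IFNG light, 1.86, 2.01 and 3.30 CPM in P815-IFNG dark, 0, 0 and 0.447 CPM in P815-M light and 0.39, 0 and 0.823 CPM in P815-M dark. In the deep dark library this was 148 counts of Tnni1, beside 317 of its fast counterpart Tnni2, so the slow gene was detected there well above counting error. Myl2, the slow regulatory light chain, had 1.21, 0.976 and 0.162 CPM in P815-IFNG light, 2.17, 2.68 and 0.0223 CPM in P815-IFNG dark, 0, 0 and 0.447 CPM in P815-M light and 0.781, 0 and 0 CPM in P815-M dark. Tnnc1, the slow and cardiac troponin C, reached 2.08 CPM at most. At the depth of the 10 libraries, differences in slow fibre genes of the size of these floors were not detectable.

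Calcium genes divided into those that followed Acta1 and those that did not. Atp2a1, the fast-fibre calcium pump, had 8.04, 8.78 and 2.41 CPM in P815-IFNG light, 77.0, 20.8 and 13.1 CPM in P815-IFNG dark, 15.6, 34.0 and 50.5 CPM in P815-M light and 12.9, 87.0 and 10.3 CPM in P815-M dark. Its order of libraries was near that of Acta1, but its exons overlap those of Rabep2 on the other strand by 763 bases. Jph1, the junctophilin that ties the reticulum to the surface membrane, had 24.1, 14.2 and 34.6 CPM in P815-IFNG light, 25.1, 16.4 and 40.3 CPM in P815-IFNG dark, 20.8, 24.9 and 24.1 CPM in P815-M light and 18.3, 13.02 and 32.5 CPM in P815-M dark. It was lowest in P815-M dark 2, the library with the most Acta1. Parvalbumin (Pvalb), the calcium buffer of the fastest fibres, was at 0 in all 3 P815-IFNG light libraries and at 14.0, 2.01 and 6.70 CPM in P815-IFNG dark.

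Of the energy genes, Ckm (chr7:19404776-19422841, plus strand) had 50.7, 44.9 and 137 CPM in P815-IFNG light, 67.0, 53.6 and 134 CPM in P815-IFNG dark, 27.5, 44.1 and 45.6 CPM in P815-M light and 60.5, 67.2 and 55.6 CPM in P815-M dark. It was present in every library, also where Myh1 and Acta1 had no count, and was highest in the deep pair. Pgam2, the muscle phosphoglycerate mutase, which has no overlapping exon on the other strand, had 35.0, 50.7 and 0.139 CPM in P815-IFNG light, 26.7, 19.8 and 1.92 CPM in P815-IFNG dark, 37.4, 32.6 and 35.8 CPM in P815-M light and 21.1, 40.6 and 30.5 CPM in P815-M dark. It lay at 19.8 to 50.7 CPM in the 10 libraries and far lower in both deep ones, the reverse of Ckm. Pygm was the energy gene that moved with the sarcomere, with 0.519 to 15.2 CPM over the 10 libraries and its highest level in P815-IFNG dark 1.

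Which genes varied together was measured over the 10 libraries, as Pearson's r between the log2 CPM of each gene and the median log2 CPM of the other members. These are descriptions over 10 tumors that share their normalization, and they carry no p-value. The median r over 42 genes was 0.827, with a Spearman rho of 0.749. By class the median r was 0.877 for shared sarcomere genes, 0.869 for fast fibre genes, 0.814 for calcium genes, 0.348 for energy genes and 0.316 for slow fibre genes. An r of at least 0.8 was reached by 22 genes: 9 of 12 shared sarcomere, 8 of 11 fast fibre, 4 of 8 calcium, 1 of 7 energy and 0 of 4 slow fibre genes.

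The highest values belonged to Tpm2 (r = 0.984), Myh1 (0.968), Xirp2 (0.967), a protein of fibre attachment sites, and Pygm (0.953). Acta1 followed with 0.952. The 3 lowest were Jph1 (-0.253), Myl2 (0.0866) and Pgam2 (0.1), and Tnni1 was next with 0.114. Ckm had an r of 0.431, Cox6a2, a muscle subunit of cytochrome c oxidase, 0.348, and myoglobin (Mb) 0.31. Leaving out P815-M dark 2 and P815-IFNG dark 1, the libraries farthest from the median, gave a median r of 0.688 for shared sarcomere, 0.764 for fast fibre, 0.71 for calcium, 0.185 for energy and 0.0643 for slow fibre genes. With each group centred on its own mean the median was 0.898 over all genes, 0.938 for shared sarcomere, 0.908 for fast fibre, 0.881 for calcium, 0.674 for energy and 0.226 for slow fibre genes. Centring thus narrowed the gap between energy and sarcomere genes, with an r of 0.707 for Ckm, 0.674 for Mb and 0.633 for Pgam2, while slow fibre genes stayed low. Between classes, the median r of gene pairs was 0.802 for fast fibre with shared sarcomere genes (132 pairs) and 0.37 for fast fibre with energy genes (77 pairs).

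**Figure D3:**
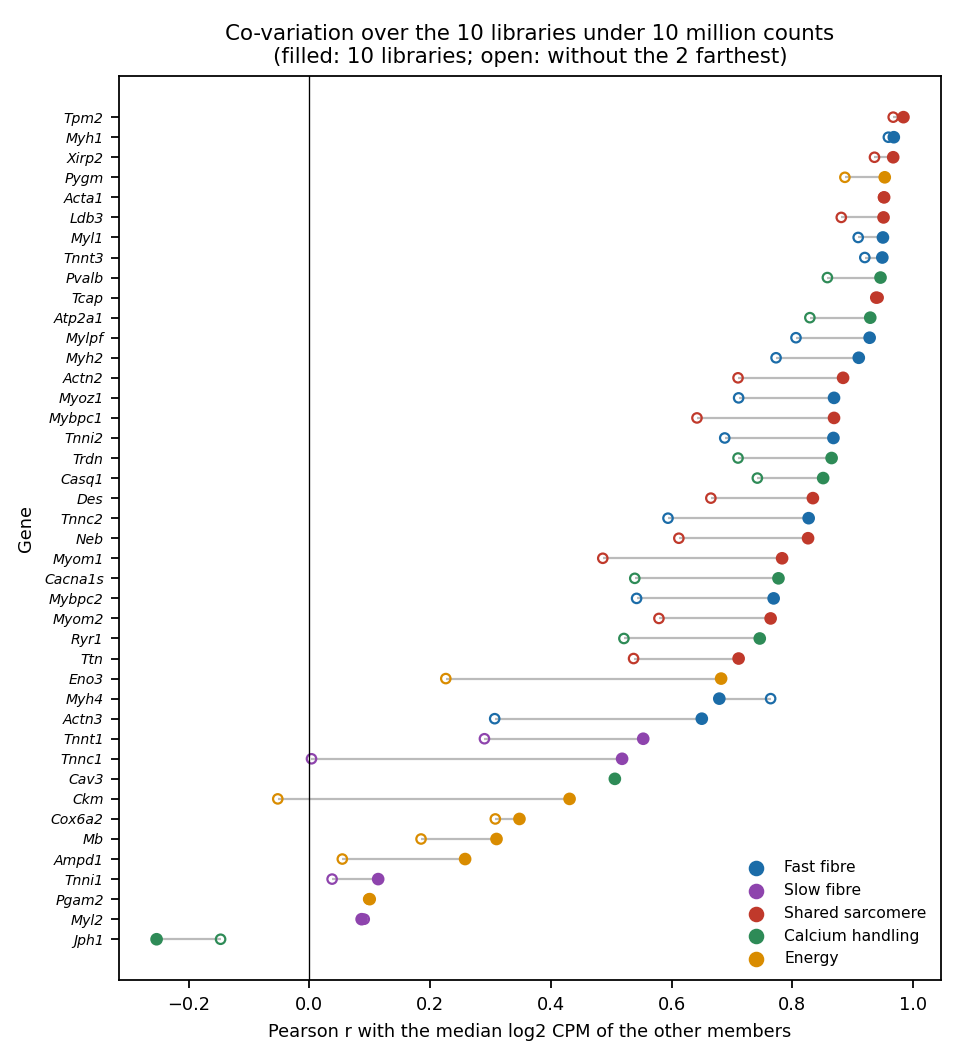
Pearson r of each of 42 muscle genes with the median log2 CPM of the others over the 10 libraries (filled points), and without the 2 farthest libraries (open points, hidden where both coincide and missing for Cav3), coloured by class. Tpm2, Myh1 and Xirp2 are the highest filled points, at 0.984, 0.968 and 0.967, whereas Ckm, Mb, Pgam2, Myl2, Tnni1 and Jph1 lie under 0.5.

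The spread between tumors of a group was large for these genes. The median standard deviation within groups over the 10 libraries was 1.52 on the log2 scale for the muscle genes and 0.415 for all 18804 genes tested. It was 2.27 for shared sarcomere, 2.14 for fast fibre, 1.39 for calcium, 1.13 for slow fibre and 0.826 for energy genes.

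The fast myosin heavy chains were not mixed in one ratio. In libraries with at least 20 counts of Myh1, Myh2 and Myh4 together, Myh1 made up 74.5% (95% Wilson interval 70.8% to 77.8%) in P815-IFNG dark 1, 78.8% (71.6% to 84.6%) in P815-M light 3 and 75.5% (70.0% to 80.2%) in P815-M dark 2. Myh4, the heavy chain of the fastest IIB fibres (chr11:67238029-67260446, plus strand) and singled out after its values were seen, led instead in P815-IFNG dark 2, with 55.6% (44.1% to 66.5%), and in P815-IFNG dark 3, with 71.2% (68.8% to 73.6%). In P815-M dark 2, which held 206 counts of Myh1, only 1 Myh4 count was found (0.366%, 0.0647% to 2.05%). P815-M light 2 lay between, with 61.1% Myh1 (44.9% to 75.2%) and 33.3% Myh4 (20.2% to 49.7%) of 36 counts. Myh2, the IIA heavy chain, ran from 3.75% in P815-IFNG dark 3 to 24.2% in P815-M dark 2. These intervals cover counting error only, and Myh1 and Myh2 overlap antisense genes while Myh4 does not.

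Levels were also set relative to Acta1 in the libraries with at least 20 Acta1 counts, with the deep one among them, P815-IFNG dark 3, shown apart. In the other 5, the ratio of Myh1 to Acta1 counts ran from 0.512 to 1.07, a 2.09-fold range. It varied 3.11-fold for Tnnt3, 3.78-fold for Atp2a1, 4.24-fold for Pygm, 5.73-fold for Pvalb and 5.88-fold for Des. For Pgam2 it varied 7.74-fold, for Mb 10.6-fold and for Ckm 10.5-fold, from 0.338 in P815-M dark 2 to 3.56 in P815-IFNG dark 2. Myh4, a fast fibre gene, had the widest range of the genes computed, 340-fold, which rests on 1 count in P815-M dark 2. With P815-IFNG dark 3, where Ckm reached 7.67 times the counts of Acta1, the range became 22.7-fold for Ckm, 14.4-fold for Pgam2 and 16.4-fold for Pvalb.

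The deep pair gave the sharpest view of single genes, as 1 light and 1 dark tumor of the P815-IFNG line, with no replicate check. Of 43 genes with a count in either, 38 were higher in P815-IFNG dark 3 and 5 in P815-IFNG light 3. Acta1 had 7 counts in the light and 785 in the dark library, a 108-fold ratio (exact 95% interval 52.2 to 270, counting error only). Tnnt3 was 56.4-fold higher (33.4 to 104), Mb 21.1-fold (10.5 to 49.6), Atp2a1 5.43-fold (4.40 to 6.76) and Ttn 2.80-fold (2.27 to 3.49). Among 15 genes with 0 counts in the light library and more than 3 in the dark one, Myh4 was at least 318-fold higher, Myh1 at least 112-fold and Pvalb at least 96.4-fold, taking 3 counts as the floor of the light library.

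Other genes of the pair were level or went the other way. Ckm had 5912 and 6019 counts, a ratio of dark to light of 0.982 (0.947 to 1.02). Jph1 differed 1.16-fold (1.09 to 1.25) and Ryr1 0.867-fold (0.676 to 1.11). Cox6a2 was at 25.3 CPM in the light and 4.31 CPM in the dark library, a ratio of 0.17 (0.145 to 0.198), and Tnnt1 had a ratio of 0.482 (0.258 to 0.872). The energy class summed to 179 CPM in P815-IFNG light 3 and 171 CPM in P815-IFNG dark 3, while the fast fibre class summed to 2.06 and 86.0 CPM. Most of the energy sum was Ckm, at 137 and 134 CPM, and the other energy genes were not level. Beside Mb, given above, Pgam2 was 13.8-fold higher in the dark library (6.10 to 38.7) and Pygm 3.36-fold (2.60 to 4.38). Eno3 was 1.32-fold higher (1.19 to 1.47), and Ampd1 at least 8.04-fold against the floor. Only Cox6a2 was clearly lower in dark.

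**Figure D4:**
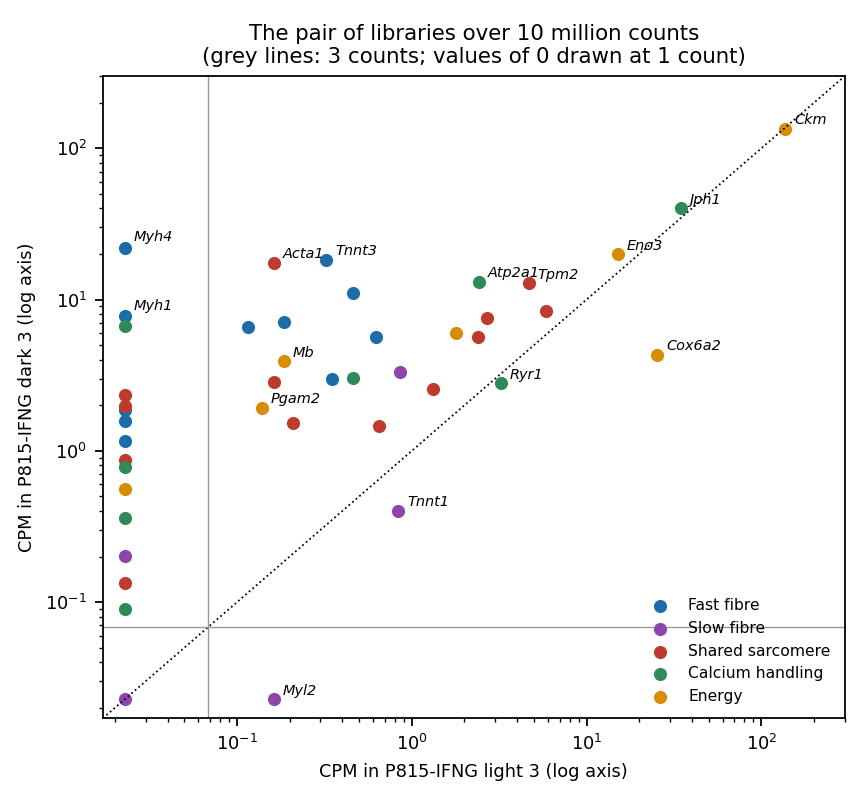
CPM of each muscle gene in P815-IFNG light 3 (x) and P815-IFNG dark 3 (y), both axes logarithmic, coloured by class, with grey lines at 3 counts the dotted line at equal levels and values of 0 drawn at 1 count. Ckm, Jph1 and Ryr1 lie near the line, Cox6a2 below it, and Acta1, Tnnt3 and Myh4 far above it.

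P815-IFNG light against dark asks how blue light, which switches on the cytokine module, changed the tumors. No muscle gene was called, and the fitted fold changes of 38 of 42 were negative, that is, lower in light. A gene was called when edgeR's quasi-likelihood test gave it a Benjamini-Hochberg adjusted p no higher than 0.05 and it differed by 1 or more on the log2 scale, and 0 of 42 muscle genes passed, beside 0% of all 18804 genes. At an unadjusted p under 0.05 there were 18 of 42, all lower in light, beside 2.18% of all genes (409 genes, in either direction). The median log2 fold change, light minus dark, was -2.51 over the 42 genes, or -2.02 with 10 genes that had no light count set to their bound against the floor, and -0.02 over all genes. All 11 fast fibre, 12 shared sarcomere, 8 calcium and 4 slow fibre genes tested had a negative fold change, and the energy genes split into 4 positive and 3 negative with a median of 0.13. In 16 genes each light library lay below each dark library, beside 2.75% of all genes.

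Single values show what the spread allowed. Myh4 averaged 0 CPM in light and 18.4 ± 4.498 CPM in dark (SD, n = 3 per group), which is at least 20.2-fold lower in light against a floor of 3 counts per library. Its unadjusted edgeR p was 0.000114 and its adjusted p 1. Myh1 averaged 0.163 ± 0.282 CPM in light and 51.8 ± 75.0 CPM in dark (log2 fold change -10.25, SE 3.45, edgeR adjusted p = 1). It had 1 count in all in the light group, so the size of this fold change is poorly known. For Acta1 the means were 0.217 ± 0.248 and 54.0 ± 65.3 CPM, and for Tnnt3 0.759 ± 1.05 and 28.5 ± 26.5 CPM. Atp2a1 averaged 6.41 ± 3.49 and 36.9 ± 34.9 CPM (log2 fold change -2.59, SE 0.97). In these 5 genes the groups did not overlap, and the two-sided exact permutation test gave p = 0.1, the smallest that 3 against 3 allows. Ckm (77.5 ± 51.5 against 85.01 ± 43.3 CPM), Jph1 (24.3 ± 10.2 against 27.3 ± 12.1), Ttn (44.5 ± 36.2 against 46.8 ± 42.4) and Pgam2 (28.6 ± 25.9 against 16.1 ± 12.8) overlapped between light and dark. Their means and SDs include the deep libraries. P815-IFNG light 3 and dark 3 held 137 and 134 CPM of Ckm, 2.71 and 7.59 of Ttn, and 0.139 and 1.92 of Pgam2.

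The calls of this comparison changed with the tool and with some treatments of the deep libraries. The batch correction ComBat-seq, told which libraries were deep and followed by the same edgeR fit, called 20 of 42 muscle genes, all lower in light. Over all 18804 genes it called 150. ComBat-seq followed by DESeq2 called 5 muscle genes, beside 85 of all genes. DESeq2 alone called 1, beside 4 of all genes, and a model term for the deep libraries called 1, beside 2. This 1 gene was Myh4 in both. The size of the difference depended on single libraries. Without P815-IFNG dark 1 the median log2 fold change was -1.52 and 7 of 42 genes had p under 0.05, beside 329 of all 18673 genes tested. Without the deep P815-IFNG light 3 these were -2.29 and 6 of 42, beside 1493 of 18140 genes.

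P815-M light against dark asks whether light alone, without the module, moved the same genes. None of 42 was called, beside 0% of all genes, and 1 of 42 had an unadjusted p under 0.05, Myh4, beside 2.71% of all genes (510). The median log2 fold change was -0.34, with 12 positive and 30 negative values. Myh4 averaged 2.96 ± 2.88 CPM in light and 0.174 ± 0.301 CPM in dark (log2 fold change 4.21, SE 1.47, edgeR adjusted p = 1), with overlapping libraries. Mb was higher in each light library (22.6 ± 4.24 against 7.91 ± 7.15 CPM, exact permutation p = 0.1) and Ckm lower in each (39.1 ± 10.03 against 61.1 ± 5.84 CPM, exact permutation p = 0.1). These were the only muscle genes without overlap, 1 of 42 in each direction, beside 10.1% of all genes higher and 8.06% lower in each light library. The median rested on 1 tumor: without P815-M dark 2, whose summed muscle level was 1353 CPM beside 233 and 234 CPM in the other dark tumors of that line, it turned to 2.41, with 35 genes positive and 6 negative.

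P815-IFNG against P815-M in light compares the 2 lines, and so 2 clones, under illumination. None of 42 genes was called, beside 0.0160% of all genes (3 of 18804), and 10 of 42 had an unadjusted p under 0.05, all lower in P815-IFNG, beside 6.79% of all genes. The median log2 fold change was -1.81, or -0.95 with genes of no P815-IFNG count at their bound, beside 0.15 over all genes. Fast fibre genes had a median of -4.27 and energy genes of -0.09. In 3 genes, Tnni2, Mybpc1 and Atp2a1, each P815-IFNG library lay below each P815-M library, beside 7.71% of all genes. Atp2a1 averaged 6.41 ± 3.49 CPM in P815-IFNG and 33.4 ± 17.5 CPM in P815-M (log2 fold change -2.46, SE 0.97, edgeR adjusted p = 0.629). Without P815-M light 3 the median was -0.48 and 1 gene of 42 had p under 0.05, beside 664 of all 18678 genes tested. Without P815-IFNG light 3 these were -1.23 and 1, beside 468 of 18140 genes.

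P815-IFNG against P815-M in dark compares the lines without light. None of 42 genes was called, beside 0.0106% of all genes (2 of 18804), and 1 had an unadjusted p under 0.05, Myh4, beside 6.86% of all genes. The median log2 fold change was 0.41 over the muscle genes and 0.33 over all genes. Myh4 averaged 18.4 ± 4.498 CPM in P815-IFNG and 0.174 ± 0.301 CPM in P815-M, where it had 1 count in all (log2 fold change 6.84, SE 1.39, edgeR adjusted p = 0.57). The libraries of the 2 lines did not overlap in Myh4 and Tnni1 (exact permutation p = 0.1 in each), 2 of 42 genes, both higher in P815-IFNG, beside 10.9% of all genes higher and 10.3% lower. Without P815-M dark 2 the median rose to 3.03, and without P815-IFNG dark 1 it was -0.78.

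The difference in light effect between the lines was tested as an interaction. None of 42 genes was called, beside 0% of all genes, and 6 had an unadjusted p under 0.05 (Myh1, Myh4, Myl1, Tnni2, Myoz1 and Tcap), beside 1.66% of all genes. The median over the muscle genes was -2.25 on the log2 scale. Without P815-M dark 2 it was -4.37, with 23 of 41 genes at p under 0.05, beside 333 of all 18737 genes tested. It was -0.95 without P815-IFNG dark 1 and -0.77 without P815-M light 3, with 2 of 42 each. Beside these stood 234 of 18673 and 225 of 18678 genes. Myh4 had the smallest p of the muscle genes (7.05e-05, edgeR adjusted p = 1.00). The 4 comparisons and this difference share groups of libraries, so their values are given side by side and are not independent of each other.

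The genes nearest to the muscle genes were sought among all others with a mean of at least 5 CPM, by Pearson's r with the median log2 CPM of the muscle genes over the 10 libraries. The 10 highest were Rabep2 (0.968), 9430073C21Rik (0.959), Gm44646 (0.958), Gm49540 (0.954), Gm15469 (0.949), A630019I02Rik (0.941), Myhas (0.932), Habp2 (0.931), Gm17224 (0.928) and Gm37759 (0.924). Each of the 10 lies opposite a gene of skeletal muscle in the GRCm38 annotation. For 7 of them that gene is one of the 44, namely Atp2a1, Myh2, Mybpc2, Mb, Myh1, Casq1 and Cacna1s, and for the other 3 it is Trim54, Cmya5 or Nrap, which belong to a wider list of muscle genes.

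In the 10 libraries these neighbours were often higher than the muscle gene itself, and in the deep libraries most of them were near 0. Myhas, antisense to Myh1, had 650 CPM in P815-M dark 2, beside 107 CPM of Myh1, and 0.982 CPM in P815-IFNG dark 3, beside 7.75 CPM of Myh1. Rabep2, a protein-coding gene whose exons overlap those of Atp2a1, ran from 28.9 CPM in P815-M dark 1 to 840 CPM in P815-M dark 2, and had 15.8 and 22.6 CPM in the deep pair. Ube2c, a cell cycle gene that covers 74% of the exon bases of Tnnc2 from the other strand, ran from 24.1 to 945 CPM, again highest in P815-M dark 2.

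Myoglobin was the clearest case of a muscle gene whose neighbour followed the others better than it did itself. Mb, singled out after its values were seen, had 54.7 CPM in P815-IFNG light 1 and 27.9 CPM in P815-IFNG dark 1. Gm49540, which overlaps 412 bases of its exons, had 0 counts in P815-IFNG light 1 and 99.6 CPM in P815-IFNG dark 1, and its r with the median of the muscle genes was 0.954, beside 0.31 for Mb. Ckm differed from this: A930016O22Rik, which overlaps it by 451 bases, held 1025 to 2049 CPM in the 10 libraries and 121 and 127 CPM in the deep ones, with an r of 0.316. Exons of at least 100 bases overlap on the other strand in 16 of the 44 genes in all, and none for Acta1, Myh4, Tnnt3, Pgam2 or Jph1. The libraries were made with a kit that keeps the strand and counted with default settings; how strand and depth enter the levels of these genes was not tested.

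**Figure D5:**
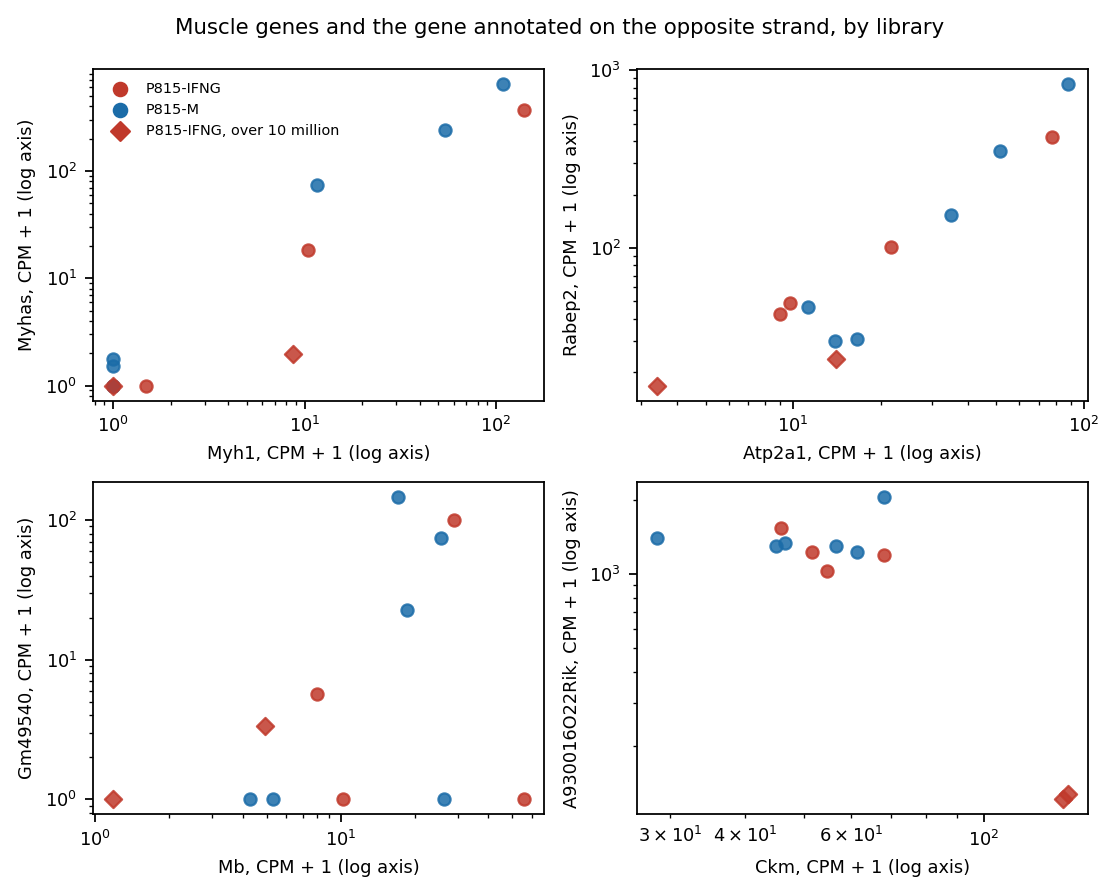
CPM + 1 of Myh1, Atp2a1, Mb and Ckm (x) and of the gene annotated on the opposite strand (y) in each library, both axes logarithmic, with P815-IFNG in red, P815-M in blue and the deep libraries as diamonds. Myhas and Rabep2 climb with Myh1 and Atp2a1 to 650 and 840 CPM in P815-M dark 2, Gm49540 does not follow Mb, and the deep libraries lie apart in the Ckm panel.

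Wider lists of genes were read against the same libraries. Of 50 further muscle genes 47 were tested, with 0 called in any of the 5 comparisons. Their median log2 fold change was -1.78 for P815-IFNG light against dark, with 8 at p under 0.05 and lower in light, and the r of their median level with that of the 44 genes was 0.953 over the 10 libraries. The most abundant of them, Lrrc39, Myl6b and Pfkm, had an r of 0.221, 0.193 and 0.413. Of 8 further slow fibre genes, Tpm3 and Atp2a2, which many tissues express, were at 279 to 335 and 182 to 297 CPM in the 10 libraries, and Csrp3 and Ankrd2 were at 0 to 12.7 and 0 to 9.39 CPM. The median level of these 8 had an r of 0.943 with that of the 44 genes, and the median r of the single genes was 0.657. Single values were 0.943 for Csrp3 and 0.834 for Ankrd2, but 0.0175 for Myh7b, 0.0143 for Atp2a2 and -0.169 for Tpm3. The r of the 4 slow fibre genes above ran from 0.0866 to 0.553, with a median of 0.316.

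Markers of other cell types were read in the same way. In P815-IFNG light against dark, where the median of the muscle genes was -2.51, it was -2.05 for endothelial markers (3 of 8 at p under 0.05, lower in light), -1.69 for smooth muscle and pericyte markers (2 of 10, lower in light), -1.25 for adipocyte markers (0 of 12) and -1.06 for Schwann cell markers (0 of 8). The median was nearer to 0 for cardiac genes (-0.917, 0 of 9) and fibroblast markers (-0.442, 1 of 10, lower in light). For mast cell markers it was -0.223 (1 of 11, lower in light) and for keratinocyte genes 0.00116 (0 of 3). Smooth muscle and pericyte markers summed to 250 to 420 CPM over the 10 libraries (r of the median level 0.651), endothelial markers to 55.6 to 197 CPM (0.65), Schwann cell markers to 13.7 to 161 CPM (0.436), cardiac genes to 5.35 to 17.4 CPM (0.327) and keratinocyte genes to 3.13 to 11.0 CPM, with 6 of 12 at 0 in all libraries. Adipocyte markers ranged most, from 32.1 CPM in P815-M dark 3 to 798 CPM in P815-IFNG dark 2 (r 0.622), a library with 15.1 CPM of Acta1. Fibroblast markers (5074 to 13490 CPM) and mast cell markers (2314 to 3649 CPM) had an r of 0.00707 and 0.351. None of these genes was called in the 5 comparisons. The part of any of these tissues in the levels of the muscle genes was not tested.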

How the data were processed

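RNA was sequenced from 12 tumors with a TruSeq Stranded mRNA kit. The authors aligned reads to mm10 with the knock-in sequences by STAR 2.7.9a and counted them with HTSeq 0.13.5 at default settings, and the deposited values are raw counts per gene before their own removal of mitochondrial genes and batch correction. Here, mitochondrial rows and genes with fewer than 10 counts in all were removed, which left 18804 genes. CPM used TMM-scaled library sizes. One edgeR 4.0.16 quasi-likelihood fit (R 4.3.3) over 12 libraries gave 5 comparisons, with a gene called where the Benjamini-Hochberg adjusted p was no higher than 0.05 and the difference 1 or more on the log2 scale, and the fit was tested on simulated data. The SE of an edgeR fold change was computed as its absolute size divided by the square root of the quasi-likelihood F statistic. DESeq2 reported its own SE. Replicates are 3 mice per group from 1 clone per line. DESeq2 1.42.0, ComBat-seq in sva 3.50.0, other filters, a deep-library term, a replicate block and leaving out each library were the alternatives. Values in every library were given for the 2 genes of each class with the highest mean CPM and the 3 with the lowest correlation, and further genes were named from ranges or after their values were seen. Same-numbered libraries of P815-IFNG light and dark deviated together (r = 0.579, 0.578 and 0.874), and number 3 is the deep library in both groups. Light 1 with dark 2 (r = 0.57) and light 2 with dark 1 (0.544) did so as well, so these values do not show a pairing by number. Replicate numbers come from the sample labels. In the other comparisons the r of same-numbered libraries ran from -0.179 to 0.164. Exons were taken from GENCODE M21 on GRCm38, and promoters from RefSeq for 33 of 44 genes. The genes and lists were chosen with earlier results of these data known. One further gene list is not reported here.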

Additional observations from a re-analysis of the deposited data

How the results depend on the processing

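No muscle gene was called in the edgeR fit, and the count of called genes changed with the tool and with some treatments of the deep libraries. In the order of light in P815-IFNG, light in P815-M, the lines in light, the lines in dark and the difference in light effect, ComBat-seq gave 20, 1, 11, 5 and 10 called genes of 42. Over all 18804 genes it called 150, 247, 252, 544 and 40. ComBat-seq with DESeq2, which changes both choices, gave 5, 0, 4, 2 and 2, beside 85, 218, 179, 447 and 6 of all genes. DESeq2 and the term for the deep libraries each gave 1, 0, 1, 1 and 1. Over all genes DESeq2 called 4, 1, 42, 44 and 4, and the term 2, 194, 82, 290 and 3. The 10 libraries alone gave 1 gene of 40, for the lines in dark, beside 371 of all 16944 genes tested there. In DESeq2, with the term and in the 10 libraries, that gene was Myh4. Its DESeq2 log2 fold change for P815-IFNG light against dark was -9.15 (SE 1.33, adjusted p 4.13e-08), and its edgeR value with the term was -10.65 (SE 1.14, adjusted p 0.000533). Since Myh4 had 0 counts in P815-IFNG light, the sizes of these fold changes and their SEs come from the model. Against the floor of 3 counts Myh4 was at least 20.2-fold lower in light. Why the calls changed was not tested.

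Leaving out each library in turn left the count of called muscle genes at 0 to 0. Their median log2 fold change ran from -2.86 to -1.52, from -1.34 to 2.41, from -2.36 to -0.48, from -0.78 to 3.03 and from -4.37 to -0.77 in the same order. Leaving out P815-M dark 2, the library with the most muscle counts, gave 2.41 for P815-M light against dark, 3.03 for the lines in dark and -4.37 for the difference. Without P815-M light 3 the difference was -0.77. The sign of the median changed for light in P815-M without P815-M dark 2 and with the replicate block, and for the lines in dark without P815-IFNG dark 1 and, at -0.01, without P815-M dark 3. With the replicate number as a block, 0 muscle genes were called and the medians were -2.76, 0.23, -1.85, 0.47 and -3.04. The block changed no call of a muscle gene. Over all genes it called 4 for the lines in light and 7 for the lines in dark, beside 3 and 2 in the edgeR fit without it. Taken from the median log2 CPM, the range between libraries was 24.4-fold in place of 5.80-fold. Over all genes, P815-M light against dark had 0 calls in the edgeR fit, 1 in DESeq2, 194 with the term for the deep libraries, 157 in the 10 libraries, 244 in the 6 libraries compared and 247 with ComBat-seq. A median was counted as moved beyond 1.725 log2 units, the pooled SD within groups, which is wide, a correlation beyond 0.1 and a range beyond 1.5 times. By these limits 228 values stayed, 18 gained calls and 7 moved, where the library richest in muscle counts and P815-M dark 2 are 1 library entered under both names. In the 10 shallow libraries, 3 counts are about 1 CPM, which limits what can be said of slow fibre genes.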
